A study of Mus musculus with 17 samples.

Results

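Serum amyloid A genes encode small secreted proteins of the acute phase response, and their transcripts were followed here in mouse lung. The 4 genes, Saa1, Saa2, Saa3 and Saa4, were taken by symbol and each had 1 row in both deposited expression tables, out of 24327 gene rows in all. The study measured bulk RNA from lung in 17 libraries, with the libraries of each experiment in a table of their own. The first experiment held 3 libraries labelled LysMcre;Nlrp3A350V (Nlrp3 mutant) and 3 labelled control. The second held 4 libraries labelled LysMcre;Nlrp3A350V;Il181r-/- (Il18r1 null mutant), 3 labelled LysMcre;Nlrp3A350V;Il181r+/- (Il18r1 het mutant) and 4 labelled Il18r1 control. Nlrp3A350V is an activating allele of the inflammasome sensor NLRP3, and LysMcre is a Cre recombinase active in myeloid cells. "Il181r" in the labels is read as Il18r1, which encodes the ligand-binding chain of the interleukin-18 receptor. All 7 mutant libraries of the second experiment carried both LysMcre and Nlrp3A350V and by label differed only in Il18r1. The labels give the control genotypes no further, and give no age, sex, batch or animal of origin, so p-values measure the spread between these libraries, which may in part be technical. No group of the second experiment is labelled as Nlrp3A350V with both copies of Il18r1 intact.

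Saa1 and Saa2 are the classical circulating forms, made mainly by hepatocytes in response to interleukin-1, interleukin-6 and tumour necrosis factor and carried on high-density lipoprotein. Saa3 is the form made chiefly outside the liver in mice, by macrophages, epithelial cells and adipocytes, and Saa4 is the constitutive form. The proteins bind FPR2 and Toll-like receptors on leukocytes, and their genes are classical targets of C/EBP and NF-kB transcription factors.

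The 4 genes lie in 1 cluster of 42.3 kb on mouse chromosome 7. In the GENCODE M21 annotation of GRCm38, Saa3 spans 46711998 to 46715700, Saa4 46727998 to 46732603 and Saa1 46740497 to 46742980, all on the minus strand, and Saa2 spans 46751790 to 46754313 on the plus strand. The longest transcript of each has 4 exons. Saa1 and Saa2 are near-identical copies: their coding sequences share 95.1% of aligned bases, against 77.1% for Saa1 and Saa3 and 67.3% for Saa1 and Saa4. Of the 560 different stretches of 50 bases in coding Saa1 transcripts, 74 (13.2%) also occur in a coding Saa2 transcript, and 50 bases was the read length per the labels. Of 2556 such stretches in Saa3, 9 occur in Saa1 and 0 in Saa2 or Saa4. The split between Saa1 and Saa2 is therefore uncertain, since how shared reads were assigned is not stated in the labels or headers. RefSeq also lists "Saa2" as an older name of Saa1 and "Saa1" as an older name of Saa2, and the names are used here as the tables give them.

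The promoters of Saa3, which had the highest levels, and of the copies Saa1 and Saa2 are printed from RefSeq (GRCm38.p6), from 250 bases before to 50 bases after the transcript start, read 5′ to 3′ on the strand of the gene. They are Saa3 at chr7:46715627-46715926 on the minus strand, Saa1 at chr7:46742931-46743230 on the minus strand and Saa2 at chr7:46751583-46751882 on the plus strand. In RefSeq the Saa3 gene reaches 46719615 and the Saa1 gene 46743181, so both also start further upstream than the start used here. The Saa3 window lies wholly within that longer gene, and the Saa1 window in part. Capitals mark matches on either strand to a C/EBP motif, TTNNGCAA, or to a TATA motif, TATAAA or TATATA.
Saa3: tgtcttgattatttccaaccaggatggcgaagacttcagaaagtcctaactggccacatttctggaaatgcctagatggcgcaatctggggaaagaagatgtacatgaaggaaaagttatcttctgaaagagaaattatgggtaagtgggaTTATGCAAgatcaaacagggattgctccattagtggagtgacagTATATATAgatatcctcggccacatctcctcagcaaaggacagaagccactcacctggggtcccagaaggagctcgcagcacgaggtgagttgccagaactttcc
Saa1: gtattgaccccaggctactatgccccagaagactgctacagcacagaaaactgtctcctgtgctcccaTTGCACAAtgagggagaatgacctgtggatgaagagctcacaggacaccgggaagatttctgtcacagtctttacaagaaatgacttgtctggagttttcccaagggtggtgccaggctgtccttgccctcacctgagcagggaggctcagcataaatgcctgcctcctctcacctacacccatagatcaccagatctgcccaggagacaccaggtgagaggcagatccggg
Saa2: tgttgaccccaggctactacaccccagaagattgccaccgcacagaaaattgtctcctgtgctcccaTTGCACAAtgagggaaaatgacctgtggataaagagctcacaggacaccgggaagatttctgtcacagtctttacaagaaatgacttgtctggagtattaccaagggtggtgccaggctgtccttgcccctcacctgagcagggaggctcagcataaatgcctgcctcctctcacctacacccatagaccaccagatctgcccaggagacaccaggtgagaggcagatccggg
Saa3 held a C/EBP match that begins at position -99 from its start and overlapping TATATA matches at -55 and -53. The matches of Saa1 at -182 and of Saa2 at -183 lie on the opposite strand, as the same letters in promoters that share 95.3% of aligned bases, against 54.2% for Saa1 and Saa3. Saa4 had C/EBP matches at -52 and, on the opposite strand, at -245. Of 27025 promoters of the same length, 10.8% held TTNNGCAA, 5.94% TATATA and 14.2% TATAAA on either strand. No member's window held the other motifs searched on both strands, GGANNTTCC (a short NF-kB form, in 4.24% of promoters), a longer NF-kB form (4.71%) or TTCNNNGAA (STAT, 8.47%), which says only that these letters are not in these windows.

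**Figure D1:**
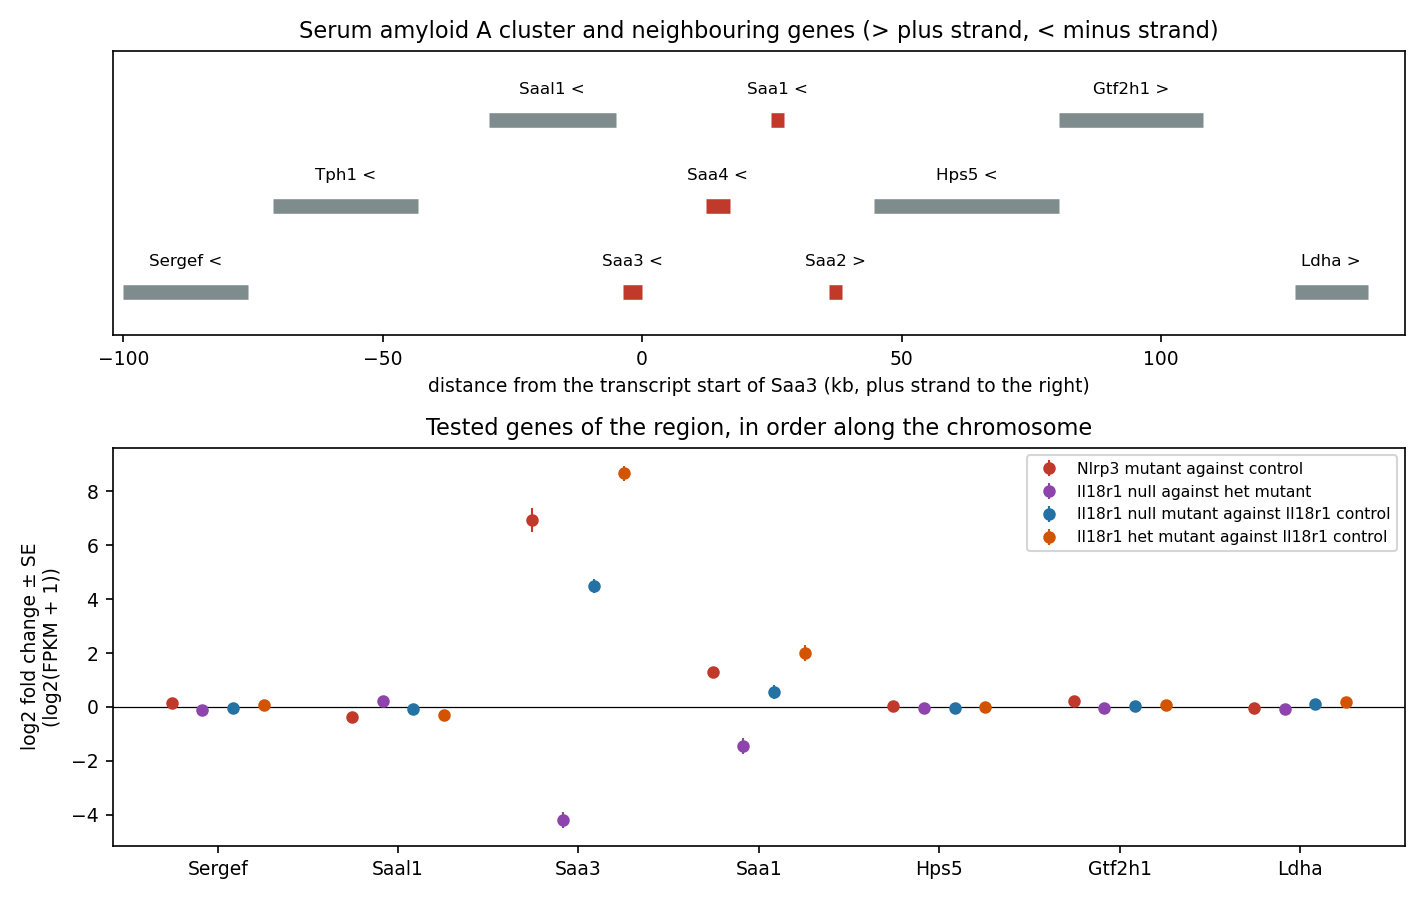
Above, the serum amyloid A cluster (red) and its 6 protein-coding neighbours within 100 kb of the cluster (grey), by distance from the transcript start of Saa3 in kb, with Sergef running past the left edge. Below, log2 fold changes ± SE on the log2(FPKM + 1) scale for the tested genes in chromosomal order: Saa3 and Saa1 stand apart, at up to 8.67 and 1.99 in Il18r1 het mutant against Il18r1 control lungs, and no neighbour moved by more than 0.38 in either direction.

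Libraries of 1 group resembled each other, with Pearson correlations across genes of 0.987 to 0.994, and no pair held identical values. Depth relative to the first control library of each table, read from the most frequent ratio of low values, was as low as 0.788 in the first experiment and between 0.751 and 1.15 in the second, and absolute depth is unknown. Il18r1 itself was at 6.98 to 9.00 FPKM (fragments per kilobase of transcript, scaled to library size) in Il18r1 null mutants, 29.9 to 31.2 FPKM in Il18r1 het mutants and 13.4 to 15.0 FPKM in Il18r1 controls. In the first experiment it was at 40.0 to 43.4 FPKM in Nlrp3 mutants and 17.9 to 22.2 FPKM in controls. The null libraries were thus lowest, as their label says, although the part of the gene the null allele lacks is not stated. Nlrp3 averaged 2.94 FPKM in Nlrp3 mutants and 1.19 FPKM in controls, a level that does not check the A350V change itself. Lung markers were abundant in all 17 libraries, where the summed level of 6 lung genes was at least 22600 FPKM. Xist, expressed from the inactive X chromosome of females, was at 37.7 FPKM or more in all 3 Nlrp3 mutants, all 3 Il18r1 het mutants and Il18r1 null mutants 2 and 4. In all 7 controls and in null mutants 1 and 3 it was at most 0.0426 FPKM, so sex and genotype cannot be told apart in the first experiment or between het mutants and Il18r1 controls.

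Saa3 was among the most abundant transcripts of Nlrp3 mutant lungs and was far lower in control lungs. It was at 2643, 1559.5 and 2008 FPKM in the 3 Nlrp3 mutant libraries, against 34.8, 13.1 and 7.98 FPKM in the 3 control libraries. The groups did not overlap, and the lowest mutant library stood 44.8-fold above the highest control library. Mean levels were 2070.4 ± 544 FPKM in Nlrp3 mutants and 18.6 ± 14.3 FPKM in controls (SD, n = 3 each), a 111-fold ratio. Without control library 1 the control mean was 10.5 FPKM and the ratio 197-fold. The log2 fold change was 6.94 (SE 0.45, adjusted p = 2.08e-05, limma with Benjamini-Hochberg adjustment over 13549 genes). Here and below, fold changes are on the log2(FPKM + 1) scale, which understates changes of low genes. Only Serpina3n, an acute phase protease inhibitor gene, had a larger positive fold change among the genes tested. By level within a library, Saa3 ranked 10, 18 and 13 among all genes in the Nlrp3 mutants and 2518, 6267 and 8366 in the controls.

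In the second experiment Saa3 took 3 separate levels. It was at 150.3, 238, 191 and 328 FPKM in the 4 Il18r1 null mutant libraries. In the 3 Il18r1 het mutant libraries it was at 4907, 4496 and 2919.9 FPKM. The 4 Il18r1 control libraries had 6.46, 6.94, 10.5 and 12.9 FPKM. No 2 of these groups overlapped: the lowest het library stood 8.91-fold above the highest null library, and the lowest null library 11.6-fold above the highest control library. Group means were 227 ± 76.2 FPKM in null mutants (SD, n = 4), 4108 ± 1049 FPKM in het mutants (SD, n = 3) and 9.20 ± 3.06 FPKM in Il18r1 controls (SD, n = 4). Null lungs thus held 5.52% of the het level, and still 24.6-fold the control level.

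All 3 differences passed the test, a limma fit adjusted over 13724 genes. Null mutants were lower than het mutants by a log2 fold change of -4.20 (SE 0.28, adjusted p = 5.11e-07). They were higher than Il18r1 controls by 4.47 (SE 0.26, adjusted p = 1.83e-06). Het mutants were higher than Il18r1 controls by 8.67 (SE 0.28, adjusted p = 1.72e-09), the largest positive fold change of all genes tested there. Between null mutants and Il18r1 controls only the small RNA entries Mir703 and Snord22 had larger positive values. Ranked by fold change in the authors' deposited table, which is not on the log2(FPKM + 1) scale, Saa3 was 2 of 18063 genes in het mutants and 9 of 17364 in null mutants against Il18r1 controls. Saa3 made up to 0.898% of the summed FPKM of a het library. These comparisons share libraries, and so are not independent of each other.

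Over all 5 groups Saa3 was highest in Il18r1 het mutants (2919.9 to 4907 FPKM), then in Nlrp3 mutants (1559.5 to 2643), Il18r1 null mutants (150.3 to 328), controls (7.98 to 34.8) and Il18r1 controls (6.46 to 12.9). The ranges of both kinds of control overlap. Levels set across the 2 tables were not tested, because each was treated as normalized on its own. Within groups the highest library was 1.68-fold the lowest among het mutants, 1.69-fold among Nlrp3 mutants, 2.18-fold among null mutants and 4.37-fold among controls. Control library 1, at 34.8 FPKM, set that last spread. In bulk RNA, fewer cells of a type and less RNA per cell cannot be told apart.

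**Figure D2:**
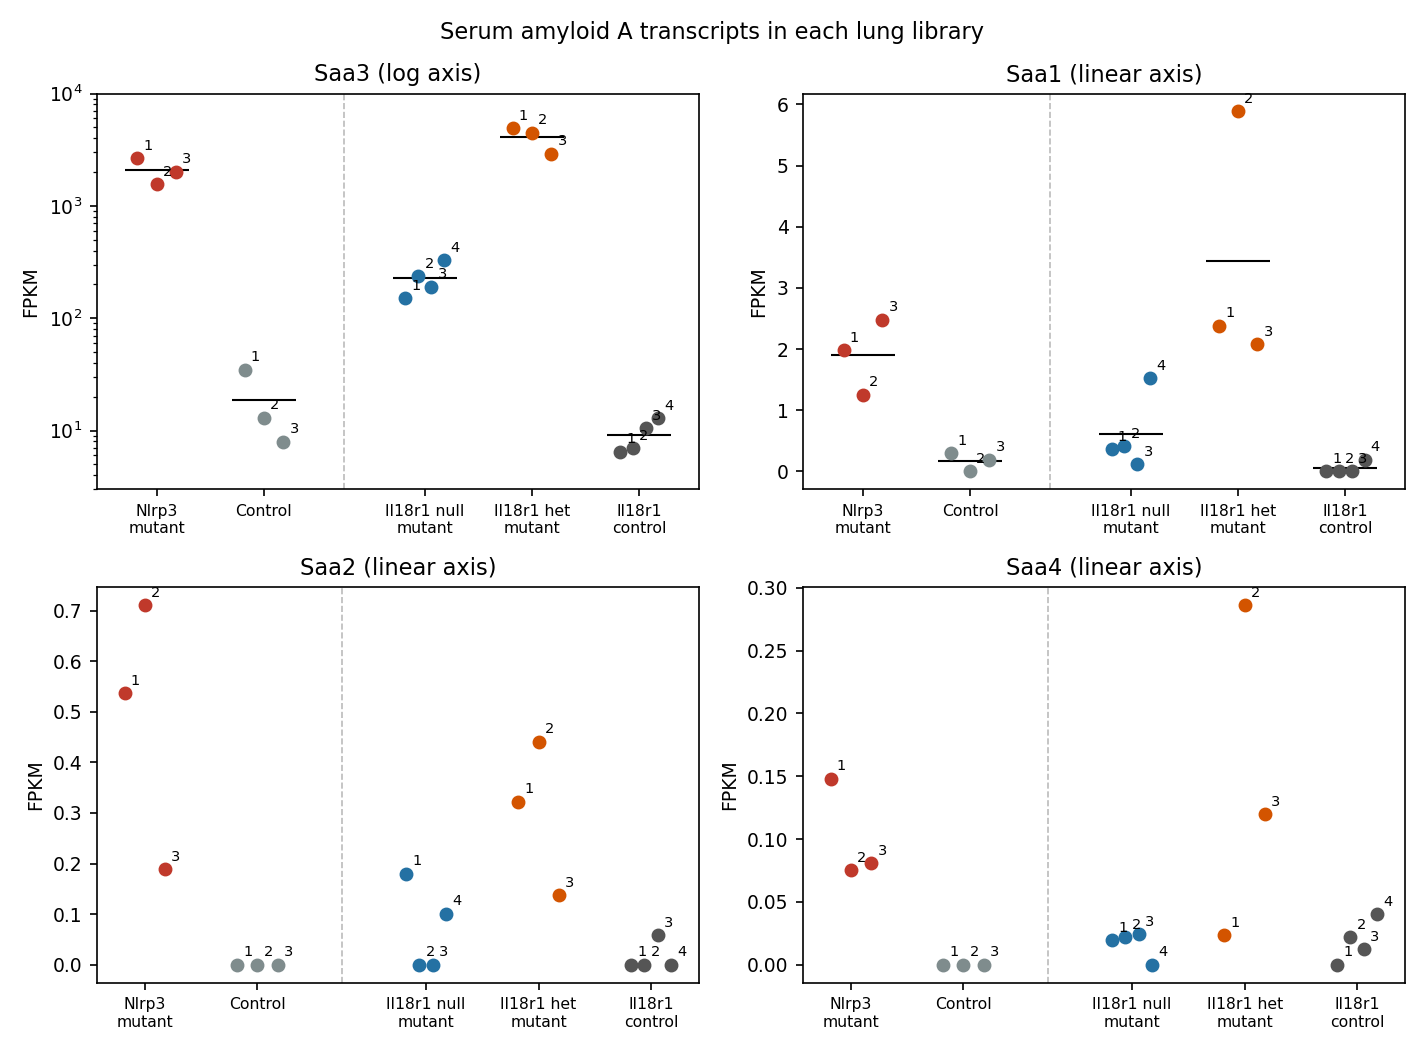
FPKM of each serum amyloid A gene in every library, by group, on a log axis for Saa3 and linear axes for the others; numbers are library numbers and black lines group means (Saa3 and Saa1 only). Saa3 in Il18r1 null mutants (150.3 to 328 FPKM) sits below het mutants and above Il18r1 controls, and the other 3 genes stay below 6 FPKM in every library.

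Saa1, the hepatocyte form with the highest level of the other 3, was detected at low levels, with group means in the same order as those of Saa3. In the first experiment it was at 1.98, 1.25 and 2.48 FPKM in Nlrp3 mutants, against 0.301, 0 and 0.188 FPKM in controls. The groups did not overlap, and the log2 fold change was 1.31 (SE 0.18, adjusted p = 0.00058, limma). Saa1 passed the filter of 1 FPKM in at least 3 libraries only through mutant libraries in both tables, so its test values, here and in the second experiment, are descriptions and support nothing by themselves. It was at 0.363, 0.410, 0.114 and 1.52 FPKM in Il18r1 null mutants, 2.38, 5.89 and 2.07 FPKM in het mutants, and listed at 0 in 3 Il18r1 controls and at 0.187 FPKM in the fourth. Het mutants lay above both other groups without overlap, whereas null mutants and Il18r1 controls overlapped.

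By limma, Saa1 in null mutants was lower than in het mutants by a log2 fold change of -1.45 (SE 0.29, adjusted p = 0.00139). In het mutants it was higher than in Il18r1 controls by 1.99 (SE 0.29, adjusted p = 0.000126). Between null mutants and Il18r1 controls the value was 0.55 (SE 0.27, 95% interval -0.05 to 1.14) and did not pass (adjusted p = 0.549). With only the libraries that held Xist, null against het mutants gave -1.14 and no longer passed (adjusted p = 0.067). Because the levels are low, the sizes depend on the constant added: with 0.1 in place of 1 they were -2.57 for null against het mutants, 4.61 for het mutants against Il18r1 controls and 3.10 for Nlrp3 mutants against controls, and these calls held. For null mutants against Il18r1 controls the value was then 2.04, against 0.55, and did not pass (adjusted p = 0.146, limma).

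Saa2 and Saa4 were near the limit of detection and did not pass the filter. Saa2 was at 0.537, 0.711 and 0.189 FPKM in Nlrp3 mutants and listed at 0 in all 3 controls. It was at 0.180 and 0.101 FPKM in Il18r1 null mutants 1 and 4 and listed at 0 in the other 2, at 0.322, 0.441 and 0.137 FPKM in het mutants, and at 0.0579 FPKM in 1 of 4 Il18r1 controls, with 0 in the rest. Saa2 in het mutants lay above every Il18r1 control (exact two-sided permutation p = 0.0286 for 3 against 4 libraries, the smallest it can give). Null mutants overlapped both het mutants (exact permutation p = 0.0857) and Il18r1 controls (exact permutation p = 0.429).

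Saa4, the constitutive form, was at 0.148, 0.0751 and 0.0809 FPKM in Nlrp3 mutants and listed at 0 in all 3 controls. It reached at most 0.0245 FPKM in Il18r1 null mutants and at most 0.0402 FPKM in Il18r1 controls, while het mutants had 0.0233, 0.286 and 0.120 FPKM. All 3 pairs of groups in the second experiment overlapped, with exact permutation p = 0.0571 for null against het mutants, 0.943 for null mutants against Il18r1 controls and 0.0571 for het mutants against Il18r1 controls. For 3 against 3 libraries the exact permutation test cannot go below 0.1, the value that Saa2 and Saa4 had in Nlrp3 mutants against controls.

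Of the 4 genes, 2 passed the filter, and Saa1 passed it only through mutant libraries, so a count over these genes describes the genes and supports nothing. Both were called higher by limma in Nlrp3 mutants than in controls, where 28.0% of all tested genes were, and both were higher in het mutants than in Il18r1 controls, where 27.3% were. Both were lower in null than in het mutants, where 26.5% of tested genes were. Against Il18r1 controls 1 of the 2, Saa3, was higher in null mutants, where 1.87% of tested genes were. Groups that did not overlap were common among tested genes too, at 32.2% higher for Nlrp3 mutants, 26.0% lower for null against het mutants, 5.06% higher for null mutants against Il18r1 controls and 27.4% higher for het mutants. In the opposite directions, 27.6% of tested genes were called lower in Nlrp3 mutants, 26.8% higher in null than in het mutants, 0.102% lower in null mutants than in Il18r1 controls and 28.9% lower in het mutants.

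The authors' deposited table of comparisons for the second experiment gave log2 fold changes of the same sign for Saa3: -4.18 for null against het mutants, 4.58 for null mutants against Il18r1 controls and 8.76 for het mutants against Il18r1 controls. For Saa1 the authors' deposited table gave -2.68, 2.75 (adjusted p = 0.104) and 5.45 in the same order. For Saa2 the authors' deposited table gave -3.25 in null against het mutants (adjusted p = 0.026) and 4.07 in het mutants against Il18r1 controls (adjusted p = 0.00706). For Saa4 the authors' deposited table gave -3.18 (adjusted p = 0.0188) and 3.43 (adjusted p = 0.0144) for these comparisons. Mean normalized counts in the authors' deposited table of null against het mutants were 27248 for Saa3, 35.2 for Saa1, 3.15 for Saa2 and 4.15 for Saa4. The fold changes of Saa2 and Saa4 thus rest on few reads.

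The neighbours of the cluster moved little. Of the 6 other protein-coding genes within 100 kb of the cluster, 5 passed the filter, and Tph1 did not. Saal1, the next gene beyond Saa3 and named for its resemblance to serum amyloid A, fell in Nlrp3 mutants (log2 fold change -0.38, adjusted p = 0.00629, limma) and in het mutants against Il18r1 controls (-0.32, adjusted p = 0.00275). It was higher in null than in het mutants (0.23, adjusted p = 0.0172). Gtf2h1, a subunit of transcription factor TFIIH, rose by 0.21 in Nlrp3 mutants (adjusted p = 0.0204). Sergef, Hps5 and Ldha passed in none of the 4 comparisons by limma.

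The cytokines known to induce these genes did not all follow Saa3. Il1b, the precursor gene of interleukin-1 beta, was at 17.0, 38.8, 46.6 and 21.1 FPKM in Il18r1 null mutants, 42.7, 31.6 and 32.3 FPKM in het mutants and 5.67, 5.11, 5.08 and 8.09 FPKM in Il18r1 controls. Null mutants overlapped het mutants and lay above all Il18r1 controls. The log2 fold change was -0.30 for null against het mutants (95% interval -0.93 to 0.34, adjusted p = 0.415) and 2.10 for null mutants against Il18r1 controls (SE 0.27, adjusted p = 0.000953, limma). For the same comparisons Saa3 had -4.20 and 4.47. Among null libraries, Saa3 was highest in library 4 (328 FPKM), where Il1b was at 21.1 FPKM, and Il1b was highest in library 3, where Saa3 was at 191 FPKM. Library 4 held Xist and library 3 lacked it. The part of the inducing cytokines in the Saa3 differences was not tested, and transcript levels do not measure the cytokine proteins.

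Of the other inducers, Osm, encoding the interleukin-6 family member oncostatin M, fell in null against het mutants (-0.87, SE 0.29, adjusted p = 0.0258) and rose in null mutants against Il18r1 controls (1.29, SE 0.27, adjusted p = 0.0286). Il18 was at 6.40 ± 1.56 FPKM in null mutants (SD, n = 4) and 11.3 ± 1.42 FPKM in het mutants (SD, n = 3), a log2 fold change of -0.75 (SE 0.15, adjusted p = 0.00157). Tnf passed only in het mutants against Il18r1 controls (0.47, adjusted p = 0.037), with overlapping groups, and was at 1.27 ± 0.238 FPKM in Nlrp3 mutants and 1.09 ± 0.206 FPKM in controls (SD, n = 3 each). Il6 was low everywhere, at most 1.48 FPKM, and was not tested, like Il17a, Il17f and Il22. It was at 1.02, 0.316 and 0.763 FPKM in Nlrp3 mutants and 0.200, 0.0769 and 0.166 FPKM in controls, without overlap, and het mutants lay above Il18r1 controls without overlap as well. For Il6 the authors' deposited table gave -0.25 in null against het mutants (adjusted p = 0.796), 1.98 in null mutants against Il18r1 controls (adjusted p = 0.0425) and 2.23 in het mutants against Il18r1 controls (adjusted p = 0.000524). Counted over the 6 tested of 10 listed inducers, 4 rose and 0 fell in Nlrp3 mutants, 0 rose and 3 fell in null against het mutants, 2 rose and 0 fell in null mutants against Il18r1 controls, and 5 rose and 0 fell in het mutants. Their median log2 fold changes in these comparisons were 1.10, -0.38, 0.19 and 0.77, beside medians between -0.02 and 0.01 over all tested genes. Of all tested genes, 28.0% were called higher and 27.6% lower in Nlrp3 mutants, and 26.8% and 26.5% in null against het mutants. The shares were 1.87% and 0.102% in null mutants against Il18r1 controls, and 27.3% and 28.9% in het mutants. These shares apply beside the counts of each list below as well.

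Among transcription factors and their feedback genes, Cebpd, a C/EBP factor of acute phase promoters, was highest in het mutants, as Saa3 was. It was at 29.2, 56.4, 40.2 and 26.3 FPKM in Il18r1 null mutants, 133, 196 and 211 FPKM in het mutants and 28.5, 20.6, 20.6 and 32.6 FPKM in Il18r1 controls. Het mutants stood apart, and null mutants overlapped Il18r1 controls. The log2 fold change was -2.25 for null against het mutants (SE 0.25, adjusted p = 1.97e-05), and 0.52 for null mutants against Il18r1 controls (95% interval 0.01 to 1.03), which did not pass (adjusted p = 0.478, limma). Nfkbia, the inhibitor induced by NF-kB, had -1.84 and Socs3, the feedback inhibitor induced by STAT3, had -1.73 in null against het mutants, and neither passed in null mutants against Il18r1 controls.

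Cebpb and Stat3 moved less, by -0.44 and -0.63 in null against het mutants. The subunit genes Nfkb1 and Rela passed in none of the 4 comparisons. Maz, a zinc finger factor described at the Saa promoters of rabbits, went the other way, at 0.63 in null against het mutants and -0.90 in Nlrp3 mutants against controls. Of the 12 genes, 6 rose and 1 fell in Nlrp3 mutants (median log2 fold change 0.54), 1 rose and 8 fell in null against het mutants (median -0.58) and 8 rose and 1 fell in het mutants against Il18r1 controls (median 0.76). In null mutants against Il18r1 controls 0 of the 12 passed the adjusted limma test and 5 had an unadjusted p under 0.05 (median 0.17). Of all tested genes 1.87% were called higher in that comparison. The part of these factors in the Saa3 differences was not tested, and transcript levels do not measure their activity.

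**Figure D3:**
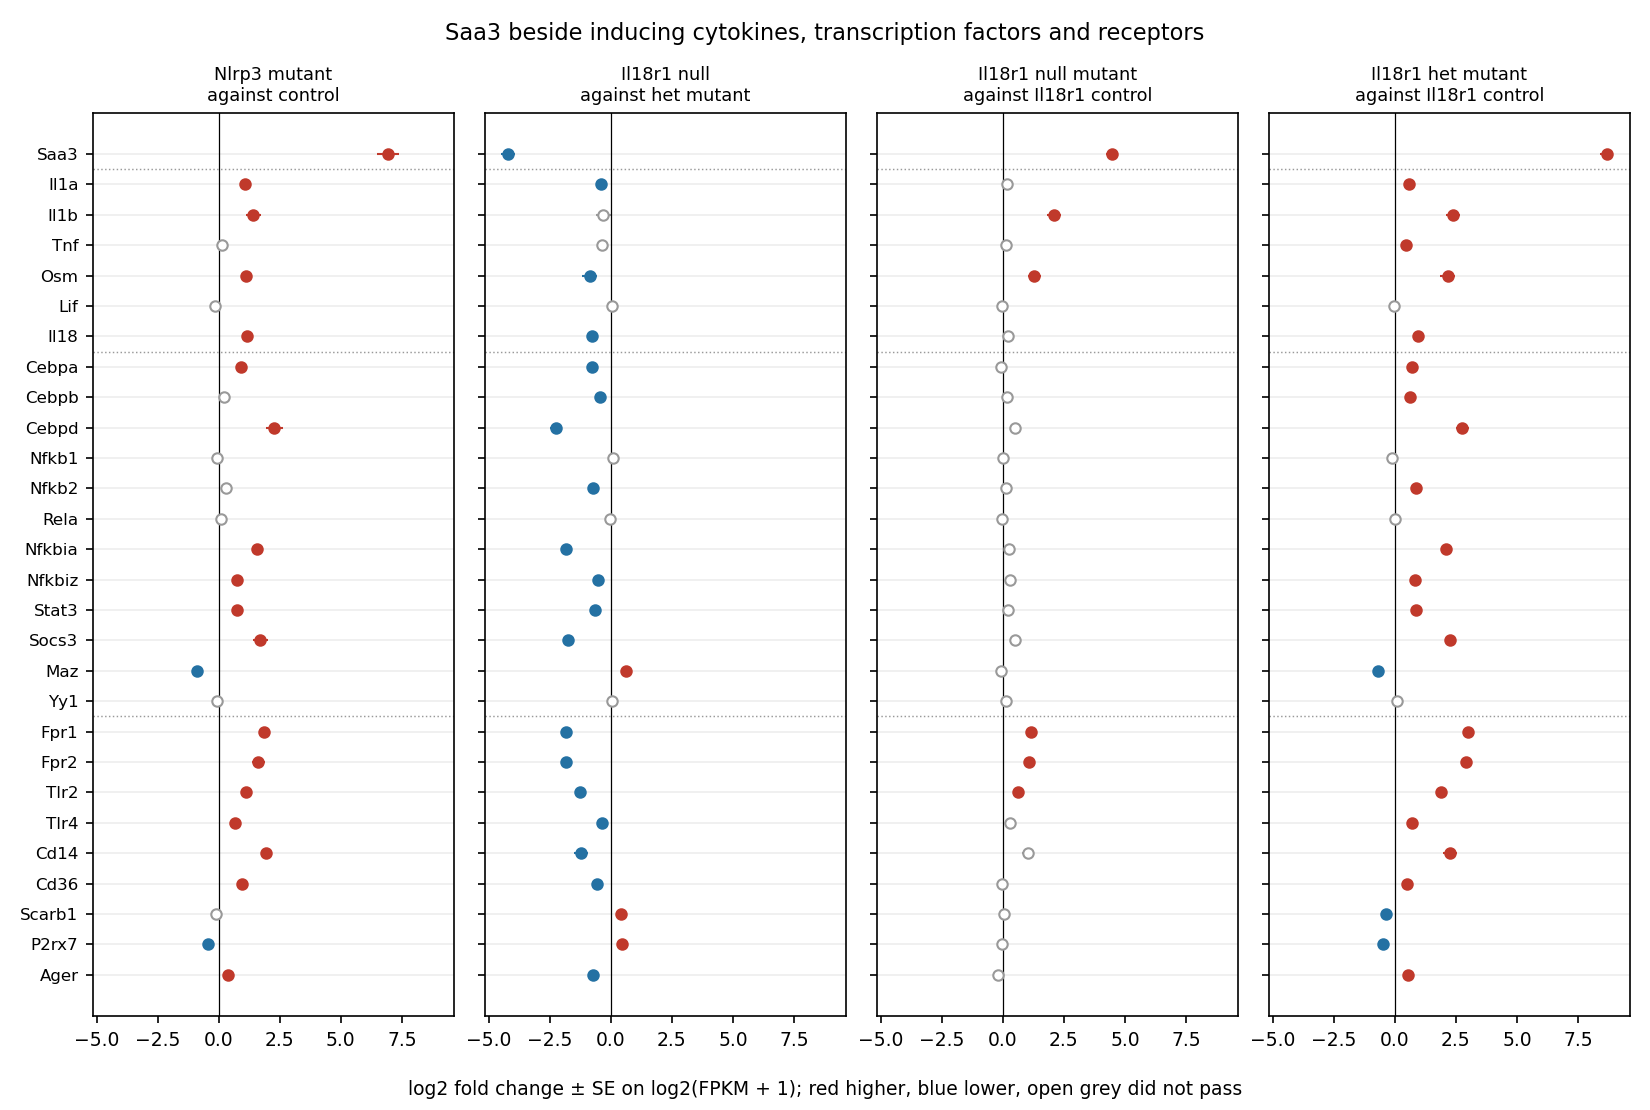
Log2 fold changes ± SE on the log2(FPKM + 1) scale of Saa3, 6 inducing cytokine genes, 12 transcription factor and feedback genes and 9 receptor genes, 1 panel per comparison. In Il18r1 null mutants against Il18r1 controls Saa3 is at 4.47, and of the genes below it Il1b, Osm, Fpr1, Fpr2 and Tlr2 passed.

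Most receptors of serum amyloid A were lower in null than in het mutants. Fpr2, a formyl peptide receptor, was at 14.6, 7.03, 10.3 and 8.08 FPKM in Il18r1 null mutants, 29.9, 41.3 and 40.8 FPKM in het mutants and 4.10, 3.83, 3.91 and 4.37 FPKM in Il18r1 controls. The 3 groups did not overlap. Fpr2 fell in null against het mutants (-1.84, SE 0.19, adjusted p = 9.42e-06), and was higher in null mutants than in Il18r1 controls (1.08, SE 0.17, adjusted p = 0.00459). Of 9 listed receptors, 7 rose and 1 fell in Nlrp3 mutants, 2 rose and 7 fell in null against het mutants, 3 rose (Fpr1, Fpr2 and Tlr2) and 0 fell in null mutants against Il18r1 controls, and 7 rose and 2 fell in het mutants. Their medians were 0.96, -0.72, 0.31 and 0.69. Scarb1, the high-density lipoprotein receptor, and P2rx7, an ATP-gated channel, were the exceptions: each rose in null against het mutants and fell in het mutants against Il18r1 controls.

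Most other acute phase genes that could be tested moved with Saa3 when Nlrp3 and het mutants were set against their controls. Of 26 listed genes 19 were tested, and 17 rose and 1 fell in Nlrp3 mutants, 0 rose and 16 fell in null against het mutants, 7 rose and 0 fell in null mutants against Il18r1 controls, and 16 rose and 0 fell in het mutants. Their median log2 fold changes were 1.92, -1.66, 0.42 and 2.17. Orm1 and Serpina3m passed the filter only through mutant libraries, so their calls within these counts are descriptions. Hamp, which encodes the iron hormone hepcidin, was the 1 that fell in Nlrp3 mutants (-1.24, adjusted p = 0.0228). Ptx3, a pentraxin, passed in none of the comparisons.

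Individual acute phase genes differed in size between null mutants and Il18r1 controls, a spread between genes that was not tested. Serpina3n was at 4.32, 4.69, 6.92 and 14.7 FPKM in null mutants, 418, 552 and 602 FPKM in het mutants, and 1.44, 1.10, 1.12 and 2.19 FPKM in Il18r1 controls. Against Il18r1 controls it was at 1.69 in null mutants (SE 0.29, adjusted p = 0.00673) and 7.74 in het mutants (SE 0.31, adjusted p = 7.54e-09). Lcn2, an iron-carrier-binding protein of neutrophils and epithelium, was at 143, 119.9, 217 and 112 FPKM in null mutants, 961, 1505 and 799 FPKM in het mutants, and 48.0 to 58.1 FPKM in Il18r1 controls. It was higher in null mutants than in Il18r1 controls by 1.38 (SE 0.21, adjusted p = 0.00324). Hp, haptoglobin, was at 375 ± 56.3 FPKM in null mutants (SD, n = 4), 2817 ± 443 FPKM in het mutants (SD, n = 3) and 302 ± 23.7 FPKM in Il18r1 controls (SD, n = 4). Null mutants and Il18r1 controls overlapped in Hp, and the difference did not pass by limma (0.30, adjusted p = 0.352). The authors' deposited table gave 0.32 for it (adjusted p = 0.0218), so the call depends on the method. The other genes higher in null mutants than in Il18r1 controls were Cfb, complement factor B (2.19), Ltf, lactoferrin (2.05), Steap4, a metalloreductase (1.63), Serpina3g (1.33) and C3 (0.85), all below the 4.47 of Saa3.

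Of the liver-type acute phase genes, Crp, Apcs, Fga, Fgb, Fgg, Orm2 and Orm3 did not pass the filter. Among these, Orm2 was at 1.12, 0.994 and 1.06 FPKM in Nlrp3 mutants and listed at 0 in their controls. In het mutants Orm2 also lay above Il18r1 controls without overlap. Orm1, an orosomucoid gene, was at 0.26, 0.14, 0.48 and 0.43 FPKM in null mutants, 4.37, 10.8 and 3.63 FPKM in het mutants and at most 0.37 FPKM in Il18r1 controls, and fell in null against het mutants (-2.33, SE 0.25, adjusted p = 1.6e-05). In the second experiment Orm1 passed the filter only through het libraries, so its test values there are descriptions and support nothing by themselves. Het library 2 was highest for both Orm1 and Saa1.

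**Figure D4:**
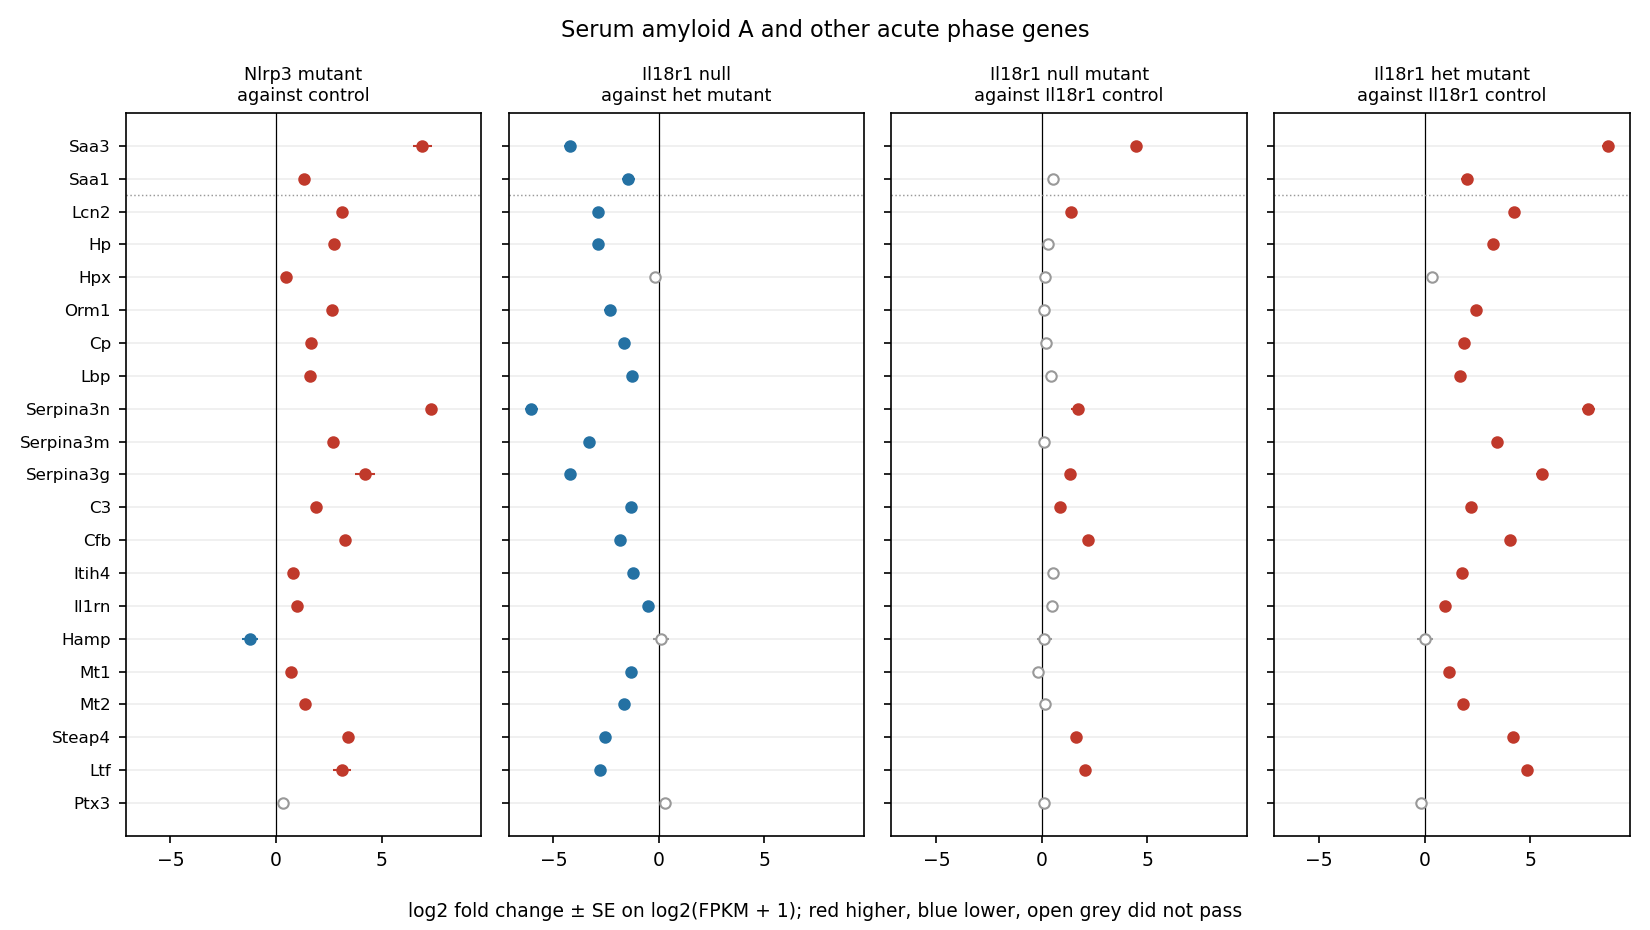
Log2 fold changes ± SE on the log2(FPKM + 1) scale of Saa3 and Saa1 (above the dotted line) and 19 other acute phase genes, 1 panel per comparison. Nearly all lie right of 0 in Nlrp3 and het mutants against controls and left of 0 in Il18r1 null against het mutants, while in null mutants against Il18r1 controls 7 of the 19 passed.

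The lipoprotein genes that serve serum amyloid A in blood were mixed. Apoa1, the main protein of high-density lipoprotein, was not tested, and was at 0, 0.15, 0.17 and 0 FPKM in null mutants, 0.27, 0.22 and 0.28 FPKM in het mutants and 0.42, 0.15, 6.04 and 4.55 FPKM in Il18r1 controls. Apoe, made by macrophages among other cells, was at 411 ± 23.3 FPKM in null mutants (SD, n = 4), 1111 ± 290.4 FPKM in het mutants (SD, n = 3) and 355 ± 4.08 FPKM in Il18r1 controls (SD, n = 4), and fell in null against het mutants (-1.41, adjusted p = 3.38e-06). Of the 6 tested of 7 listed genes in the second experiment, 0 rose and 4 fell in null against het mutants, 0 passed in null mutants against Il18r1 controls (limma; 1 had an unadjusted p under 0.05), and 3 rose in het mutants. In Nlrp3 mutants 3 of 5 tested rose and Lcat, which esterifies cholesterol on lipoproteins, fell.

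Markers of other cell types moved with these genes. The 7 neutrophil markers found of 8 listed summed to 9150 to 14800 FPKM in Nlrp3 mutants and 367 to 1330 FPKM in controls. They summed to 2130 to 2940 FPKM in Il18r1 null mutants, 9870 to 19000 FPKM in het mutants and 210 to 317 FPKM in Il18r1 controls, the same order of groups as Saa3. Of the 7, 6 rose in Nlrp3 mutants, 6 fell in null against het mutants and all 7 rose in both kinds of mutant against Il18r1 controls. Null library 4, the highest in Saa3 at 328 FPKM, was the lowest of its group in the neutrophil gene S100a8, at 714 FPKM against 942 to 963 FPKM in the other 3. The 7 alveolar macrophage markers found of 8 listed summed to 587 to 1130 FPKM in Nlrp3 mutants against 107 to 167 FPKM in controls, and to 113 to 131 FPKM in null mutants, 466 to 718 FPKM in het mutants and 114 to 149 FPKM in Il18r1 controls. There null mutants overlapped Il18r1 controls, in which Saa3 was lower. Among the alveolar macrophage markers Chil3, a chitinase-like gene, was at 634 FPKM in Nlrp3 mutants and 10.7 FPKM in controls on average. It averaged 17.2 FPKM in null mutants, 435 FPKM in het mutants and 9.88 FPKM in Il18r1 controls. Chil3 thus made up most of the sum in Nlrp3 and het mutants and a small part of it in the other groups. In each experiment 6 markers were tested, with Krt79 only in the first and Fabp1, a fatty acid-binding protein gene, only in the second. Of the 6, 5 rose and 0 fell in Nlrp3 mutants, and 5 fell in null against het mutants. Their median log2 fold change was 0.82 in Nlrp3 mutants, where Chil3 had 5.78. In het mutants against Il18r1 controls the median was 0.60, where Chil3 had 5.55. Untested in the first experiment, Fabp1 was lower there without overlap, at 0.268 FPKM in Nlrp3 mutants and 1.49 FPKM in controls on average. In the second it was the 1 that rose in null against het mutants (0.91, adjusted p = 0.00931, limma). It fell in het mutants against Il18r1 controls (0.429 against 3.08 FPKM on average, adjusted p = 0.000329). The 7 interstitial macrophage markers summed to 577 to 713 FPKM in Nlrp3 mutants and 215 to 272 FPKM in controls, and to 276 to 379 FPKM in null mutants, 762 to 940 FPKM in het mutants and 243 to 275 FPKM in Il18r1 controls. The part of cell numbers in the Saa3 differences was not tested.

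Epithelial and mesenchymal marker lists had positive medians in Nlrp3 and het mutants against controls, negative ones in null against het mutants and medians near 0 in most lists for null mutants against Il18r1 controls. Type II cell markers (8 genes) had a median log2 fold change of 1.11 in Nlrp3 mutants, -1.03 in null against het mutants, 0.05 in null mutants against Il18r1 controls and 1.01 in het mutants against Il18r1 controls. In the same order, the medians were 1.10, -1.07, 0.20 and 0.99 for 7 airway secretory markers, 0.82, -0.84, 0.04 and 0.80 for 5 mesothelial markers, and 0.54, -0.49, -0.03 and 0.45 for 7 alveolar and lipid fibroblast markers. Their part in the serum amyloid A differences was not tested.

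Hepatocytes and adipocytes are the other classical sources of these proteins. Hepatocyte markers (8 of 9 listed were in the tables) summed to 9.45 to 11.0 FPKM in Nlrp3 mutants and 2.58 to 3.55 FPKM in controls, and to 2.56 to 50.1 FPKM in null mutants, 6.41 to 46.5 FPKM in het mutants and 3.26 to 35.2 FPKM in Il18r1 controls. Of these, Cyp3a11 and Serpina1a stayed under 0.1 FPKM in every mutant library. Cyp2e1, a cytochrome P450 gene, was at 8.29 FPKM in Nlrp3 mutants and 1.73 FPKM in controls on average, and rose (1.80, adjusted p = 0.000214, limma). It also rose in het mutants against Il18r1 controls (0.82, adjusted p = 1.72e-05) and fell in null against het mutants (-0.96, adjusted p = 7.1e-06). Apob, not tested, averaged 0.326 FPKM in Nlrp3 mutants and 0.125 FPKM in controls, without overlap. Albumin (Alb) was at most 0.44 FPKM in every mutant library, and reached 9.13 FPKM in Il18r1 control 3, where Saa1 was listed at 0. Alb was not tested. In het mutants it lay below all Il18r1 controls without overlap, at 0.208 to 0.237 FPKM against 0.542 FPKM or more. Transthyretin (Ttr) was at 42.0 FPKM in het library 2 and 47.6 FPKM in null library 4, the libraries with the most Saa1 of their groups. Ttr was also at 12.1 FPKM in null library 2, where Saa1 was at 0.410 FPKM, and at 10.0 FPKM in Il18r1 control 3, where Saa1 was listed at 0. Null libraries 1 and 3, which lacked Xist, had Ttr at 0.0708 FPKM and 0. In the other 2 het libraries Ttr was at most 1.35 FPKM and Saa1 was at 2.38 and 2.07 FPKM. Adipocyte markers (5 genes) summed to at most 4.98 FPKM in any library, with Adipoq at most 0.20 FPKM in Nlrp3 mutants and 0.04 FPKM in het mutants. Adipoq was not tested and lay below controls without overlap in both kinds of mutant. It averaged 0.0675 FPKM in Nlrp3 mutants against 0.533 FPKM in controls, and 0.0142 FPKM in het mutants against 0.708 FPKM in Il18r1 controls. Cidec, a lipid droplet gene, was higher in Nlrp3 mutants than in controls (0.48, adjusted p = 0.0204, limma), a call lost at equal total FPKM (adjusted p = 0.059). Plin1, another lipid droplet gene, was not tested and did not overlap, at 0.818 FPKM in Nlrp3 mutants against 0.343 FPKM in controls and 0.827 FPKM in het mutants against 0.270 FPKM in Il18r1 controls on average. The part of hepatocytes and adipocytes in the serum amyloid A differences was not tested.

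The genes whose pattern was most like that of Saa3 were Cfb, Ccr1, Slpi, Cd33, Fcgr3 and Asprv1. They had Pearson correlations with Saa3 of 0.99, 0.98, 0.98, 0.98, 0.98 and 0.98 over the 17 libraries, centred on the mean of each table, among 10445 genes. The libraries share their groups, so the values describe the order of groups, and 4 of the 6 were also among the first 6 over the 11 libraries of the second experiment alone. Ccr1 encodes a chemokine receptor, Slpi a leukocyte protease inhibitor, Cd33 a sialic acid-binding receptor of myeloid cells and Fcgr3 an IgG receptor. Cfb averaged 15.5 ± 3.40 FPKM in null mutants (SD, n = 4), 58.3 ± 10.6 FPKM in het mutants (SD, n = 3) and 2.61 ± 0.644 FPKM in Il18r1 controls (SD, n = 4). Asprv1, an aspartic protease gene, averaged 27.0 ± 4.61 FPKM in null mutants (SD, n = 4), 176 ± 43.6 FPKM in het mutants (SD, n = 3) and 1.52 ± 0.341 FPKM in Il18r1 controls (SD, n = 4).

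Centring within groups gave other genes. When values were centred on each group, a choice made after seeing the data, 0 of the 6 genes stayed among the first 6, and the correlation with Saa3 was -0.01 for Lcn2, -0.22 for S100a8, 0.08 for Il1b and 0.31 for Serpina3n.

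**Figure D5:**
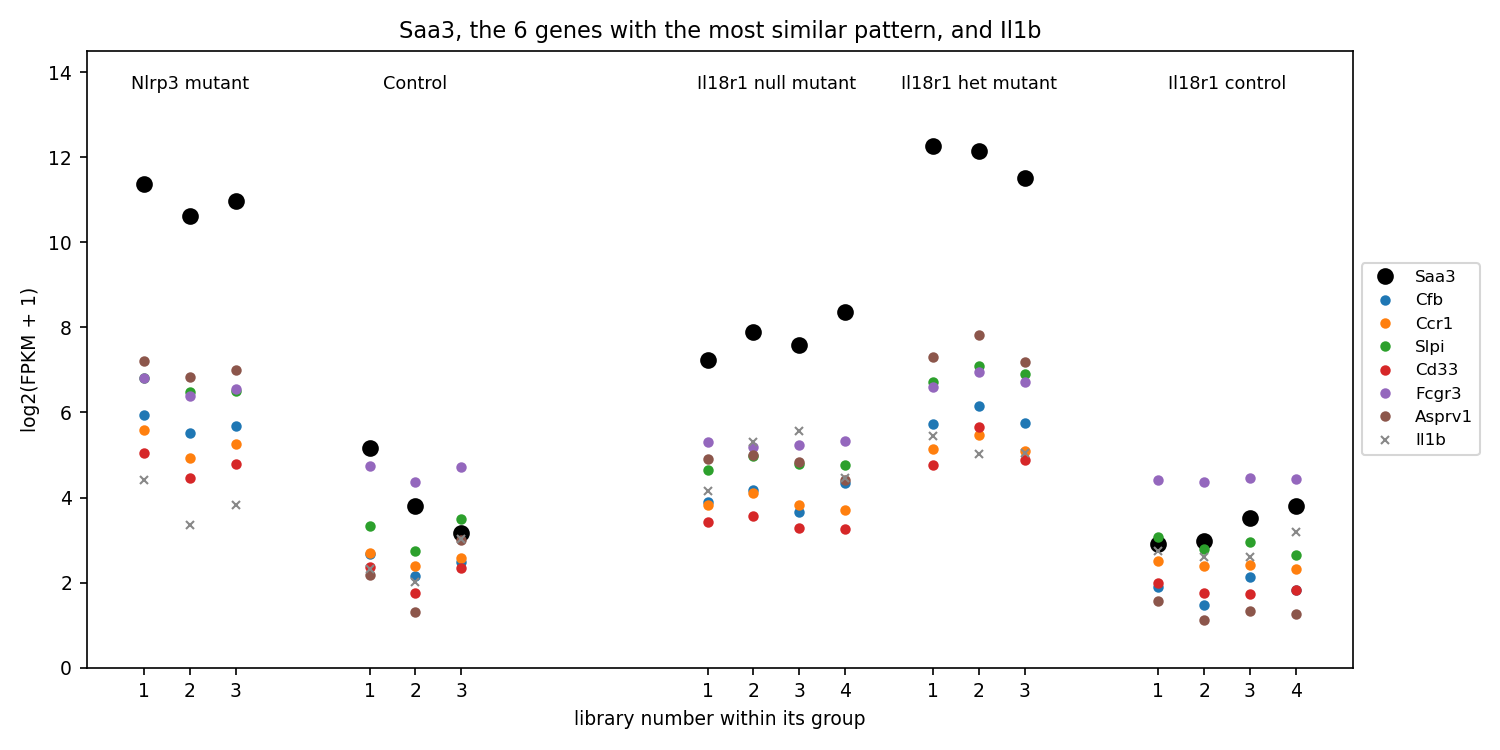
log2(FPKM + 1) of Saa3, the 6 genes most like it over 17 libraries, and Il1b (crosses), for each library by group. All 7 genes of the pattern are lower in Il18r1 null than in het mutants and higher than in Il18r1 controls, whereas Il1b overlaps between null mutants (17.0 to 46.6 FPKM) and het mutants (31.6 to 42.7 FPKM).

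Comparisons that kept Xist apart left Saa3 in the same direction. With only the libraries that held Xist, Saa3 in null against het mutants was at -3.84 (adjusted p = 0.000767, limma). With only those that lacked it, Saa3 in null mutants against Il18r1 controls was at 4.11 (adjusted p = 8.24e-05). With Xist as a term, het mutants against Il18r1 controls gave 7.95 (adjusted p = 1.01e-06), a value that rests on the null mutants for the Xist effect.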

How the data were processed

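RNA from mouse lung was made into stranded mRNA libraries and sequenced as paired reads of 50 bases, per the labels' protocols. STAR and the build GRCm38 (mm10) are named in the submitters' processing notes. The annotation, the quantifier and the treatment of shared reads are not stated there, in the labels or in the headers. Deposited by the authors were 2 tables of FPKM values per gene and library, named as such from their values since no header states the unit, and 3 tables of comparisons for the second experiment. In those deposited tables the headers name a mean normalized signal (read here as a mean normalized count), log2 fold changes with SE, a test score and p-values; the score was not used. Absolute depth is unknown.

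FPKM values were taken as log2(FPKM + 1). Each table was filtered to genes that reached 1 FPKM in 3 or more of its libraries and fitted with limma 3.58.1 in R 4.3.3 (mean-variance trend, tested on simulated data), with all groups of the table in 1 fit and Benjamini-Hochberg adjustment, threshold 0.05. Members under the filter had an exact two-sided permutation test of the difference in mean log2(FPKM + 1). Figures were drawn with matplotlib 3.10.9 and tables made with pandas 2.3.3 and numpy 2.4.6, in Python 3.11.15. From both tables, 27 rows each whose names had turned into dates were left out. Alternatives were median-of-ratios rescaling, equal total FPKM, an added constant of 0.1, no filter, a mean of at least 5 FPKM, fits of 2 groups only, a replicate block, an Xist term or split, and leaving out each library.

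The members, lists and tests were chosen with earlier results of these data known. Named were the 4 members, Nlrp3, Il18r1, Xist, set genes and the 4 smallest p of each list, and the 6 genes most like Saa3; neighbours and markers were given as whole sets, and other list genes were named after their values were seen. Tf, Ly6g and Siglec5 of the marker lists had no row.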

Additional observations from a re-analysis of the deposited data

Results flagged for a closer look

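Among 30 sets of 4 libraries tested (15 genes in the 2 groups of 4), 3 held a library that stood apart from the other 3 by the 95% criterion of Dixon, which chance alone exceeds in about 1 set in 20. Saa1 was at 0.187 FPKM in Il18r1 control 4 and listed at 0 in the other 3. Saa2 was at 0.0579 FPKM in Il18r1 control 3 and listed at 0 in the other 3. Stat3 was at 38.5 FPKM in Il18r1 null mutant 4, below the other 3 null mutants. For Saa1 and Saa2 any value above 0 beside 3 libraries at 0 meets the criterion, so the rate of 1 in 20 does not apply to them.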

How the results depend on the processing

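The calls of Saa3 held in all 4 comparisons under every alternative run. Apart from the runs that left out a library, given below, its log2 fold changes were 6.77 to 7.03 in Nlrp3 mutants against controls. They were -4.38 to -3.84 in null against het mutants, 4.11 to 4.61 in null mutants against Il18r1 controls and 7.95 to 8.85 in het mutants against Il18r1 controls. Saa1 lost its call in null against het mutants with only the libraries that held Xist (-1.14, adjusted p = 0.067); the cause was not tested, and fewer samples entered. Saa1 has no value under the mean of at least 5 FPKM. With no filter, limma called Saa2 (0.55, adjusted p = 0.0121) and Saa4 (0.14, adjusted p = 0.0231) higher in Nlrp3 mutants, and Saa2 (-0.28, adjusted p = 0.0169) and Saa4 (-0.16, adjusted p = 0.0493) lower in null than in het mutants. Genes called numbered 4883 against 7716 with the Xist term for het mutants against Il18r1 controls, and 177 against 270 with the mean of at least 5 FPKM (fewer genes tested) for null mutants against Il18r1 controls.

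Leaving out each library in turn changed no call of Saa1 or Saa3. Saa3 ranged from 6.49 to 7.49 in Nlrp3 mutants, -4.43 to -4.02 in null against het mutants, 4.27 to 4.65 in null mutants against Il18r1 controls and 8.52 to 8.90 in het mutants. Saa1 ranged from 1.17 to 1.48, -1.69 to -1.08, 0.30 to 0.70 and 1.63 to 2.21 in the same order. Genes called ranged from 6145 to 7114, 6526 to 7324, 206 to 315 and 6944 to 7762.

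Same-numbered libraries of different groups had correlations of -0.101 to 0.269 after centring on each group, and so few libraries cannot exclude a pairing by number. A replicate block gave 7009, 6807, 225 and 7278 genes called in that order, and changed no call of Saa1 or Saa3.

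Equal total FPKM shifted the median log2 fold change of all genes by -0.15 in Nlrp3 mutants, 0.18 in null against het mutants, 0.04 in null mutants against Il18r1 controls and -0.15 in het mutants. The share of calls that were higher was then 30.0%, 77.2%, 97.4% and 27.9%, against 50.3%, 50.3%, 94.8% and 48.6% as deposited. Of the genes called in the 5 lists of cytokines, factors, receptors, acute phase and lipoprotein genes, none changed sign under either scaling; Tnf in het mutants and Il1a, Nfkbiz, Tlr4, Il1rn and Pltp in null against het mutants lost their calls. Among markers, Macf1 changed sign in null against het mutants (-0.16 as deposited, 0.05 at equal totals), and Sftpc, Upk3b, Fgf10, Pparg, Cidec and, in het mutants, Macf1 lost calls. In null mutants against Il18r1 controls 5 receptors, against 3, and 9 acute phase genes, against 7, were called higher. Of the 12 transcription factor and feedback genes, 6 were then called higher and 3 lower in Nlrp3 mutants, 4 higher and 7 lower in null against het mutants, and 8 higher and 3 lower in het mutants. Depth limits Saa2 and Saa4, which were listed at 0 in several libraries.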
